A study of Mus musculus with 10 samples.

Results

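The genes described here make sterols and fatty acids. They are 36 listed genes of cholesterol synthesis, fatty acid synthesis and the SREBP system that controls both, and 35 of them were measured among the 19938 genes tested. A gene counted as measured where a probe set of the array carried its symbol and no other, and where a gene had more than 1, the probe set with the highest mean across the 10 arrays stood for it. The measured genes were 18 enzymes of sterol synthesis, 5 regulators of SREBP, the sterol transfer gene Stard4 and 11 genes of the fatty acid arm. Acat2, the thiolase at the head of the sterol pathway, had no such probe set and was not analysed here.

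RNA came from terminally differentiated mouse neurons of the mixed background 129Sv-C57Bl/6 and was hybridised to whole-transcript arrays, 1 array per sample. The treated cells were given SP600125, which inhibits JUN N-terminal kinases (JNK), at 25 µM, 3 times and 2 h apart, and the other cells were given the solvent DMSO in the same way. Each group had 5 replicates, a to e. Drug batch 1 covers replicates a and b, and drug batch 2 covers c, d and e, a batch being a lot of SP600125, and the DMSO arrays carry the same batch numbers. The labels call the replicates biological but do not say that they were separate cultures, so p-values reflect only how much these samples vary, and that variation may be technical. A kinase inhibitor can act on other proteins too, and the design has no further inhibitor or knockout of JNK.

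Cholesterol is built from acetyl-CoA through mevalonate, isoprenoids, squalene and lanosterol, and fatty acids are built from the same acetyl-CoA through malonyl-CoA. The SREBP transcription factors are made as membrane proteins and are held in the endoplasmic reticulum by Scap and the Insig proteins while sterols are plentiful. When sterols run low, Scap carries them to the Golgi, where they are cut, and the freed part enters the nucleus and switches on most of the enzymes named here; Srebf2 is known mainly for the sterol genes and Srebf1 for the fatty acid genes. The brain makes its own cholesterol, in glia and in neurons, because lipoproteins of the blood hardly cross into it.

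Nearly all of these transcripts were lower after SP600125. In a limma fit that included drug batch, 34 of the 35 genes fell at an adjusted p under 0.05 (Benjamini-Hochberg over all genes tested), none rose, and Fads1 did not pass. The median log2 change, SP600125 minus DMSO, was −0.38, and the changes ran from −0.90 for Hsd17b7 to −0.14 for Elovl5 and Me1. Falls were common on these arrays: 29.9% of all genes tested were called lower (5962) and 17.0% higher (3389), a split that was 4494 to 1497 after quantile normalization, 8602 to 1500 after centring on the median of all probe sets and 5052 to 4455 after centring on named genes. Also, among the 8751 genes in the range of mean level spanned by these genes, from 6.28 to 11.79, 56.8% were called lower. The median change was −0.03 over all genes and −0.21 over the genes of that level range, and 30 of the 35 genes lay below −0.21.

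A fall of at least 0.5 on the log2 scale, taken on unrounded values, was seen in 12 of the 35 genes, against 3.02% of all genes tested and 6.07% of the genes in their level range. After cyclic loess, described below, it was seen in 2 of the 35 (Hsd17b7 and Elovl6), against 1.38% of all genes and 1.58% of the level range. Of these 12, 9 were sterol enzymes, 2 belonged to the fatty acid arm (Elovl6 and Acly) and 1 was the regulator Srebf2; Stard4, at −0.499, lay just outside. On 28 of the 35 genes every SP600125 array lay below every DMSO array, which was the case for 16.4% of all genes tested and 32.7% of those in the level range. The 7 genes whose groups overlapped were Mvk, Pmvk, Tm7sf2, Nsdhl, Ebp, Insig2 and Fads1.

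**Figure D1:**
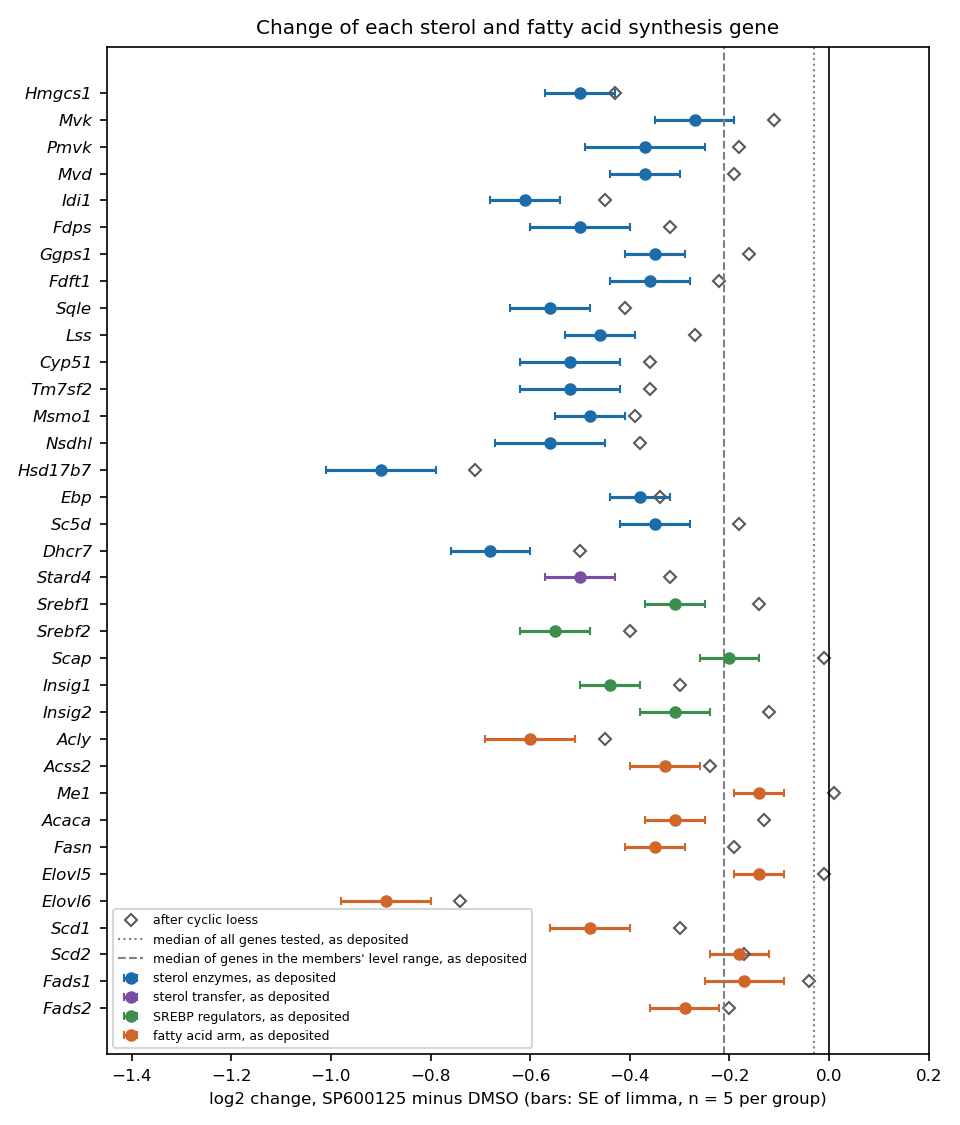
Log2 change of each of the 35 genes, SP600125 minus DMSO, as points with bars for the SE of limma (n = 5 arrays per group), coloured by role; open diamonds give the change after cyclic loess normalization, and the vertical lines mark 0 and the median changes of all genes (−0.03) and of genes in the same level range (−0.21). Hsd17b7 (−0.90) and Elovl6 (−0.89) lie farthest to the left, and most diamonds lie to the right of their points but left of 0, with Me1 at 0.01.

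Signal level moved with the treatment, and array b stood nearer to the other group for many of the genes below. Genes of middle level were lower as a class, with median changes of −0.22 for genes with a mean log2 level of 7 to 8 and −0.24 for those of 8 to 9. The spread of gene values within an array was narrower on SP600125 arrays (SD of 1.63 to 1.71) than on DMSO arrays (1.76 to 1.84), and the median of 1027 olfactory receptor genes, which neurons in culture should hardly use, was 3.86 to 3.95 on SP600125 arrays and 3.58 to 3.75 on DMSO arrays. Cyclic loess, which evens out differences that go with level, moved the median of the 35 genes to −0.27 and that of their level range to −0.06. After it 25 of the 35 genes fell, none rose and 31 lay below the median of the level range, against 17.7% of all genes and 23.6% of those in the level range called lower. The 9 falls that no longer passed after cyclic loess were those of Mvk, Pmvk, Ggps1, Srebf1, Scap, Insig2, Acaca, Elovl5 and Me1, and the change of Me1 turned to 0.01. What part of the change the difference between arrays accounts for was not tested.

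**Figure D2:**
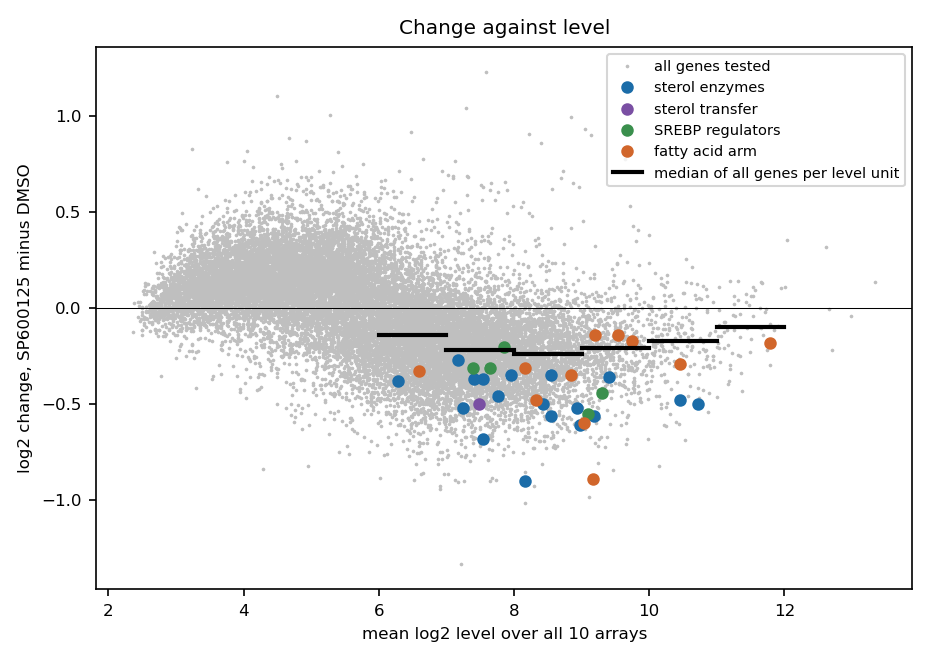
Log2 change, SP600125 minus DMSO, of every gene tested (grey) against its mean log2 level over all 10 arrays, with black bars for the median of all genes in each unit of level and coloured points for the 35 genes by role. The black bars lie below 0 from level 6 to 12, at −0.24 from 8 to 9, and the sterol enzymes lie below the bar of their own level.

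The promoters of a few genes are shown because these genes share a known regulator and differ in what their promoters hold. The windows are the 250 bases before the annotated start in RefSeq (GRCm38.p6), read 5′ to 3′ on the strand of the gene, and capitals mark matches on either strand to TCACNCCAC (a form of the sterol regulatory element that SREBP binds), CCAAT (the box of NF-Y) and GGGCGG (the box of Sp1), factors known to act with SREBP. Hmgcs1 (chr13:119690101-119690350, forward strand) is shown as the only one of these genes whose window held all of the 3 motifs, Hsd17b7 (chr1:169969206-169969455, reverse strand) and Elovl6 (chr3:129532136-129532385, forward strand) as the genes with the largest falls of their arms, and Srebf2 (chr15:82147019-82147268, forward strand) as the regulator with the largest fall. No matches overlap in these windows.
Hmgcs1: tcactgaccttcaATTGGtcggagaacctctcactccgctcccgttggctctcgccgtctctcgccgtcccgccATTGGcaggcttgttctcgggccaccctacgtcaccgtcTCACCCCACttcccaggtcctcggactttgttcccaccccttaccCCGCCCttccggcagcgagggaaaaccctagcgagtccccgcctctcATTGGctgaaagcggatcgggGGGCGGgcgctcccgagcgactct
Hsd17b7: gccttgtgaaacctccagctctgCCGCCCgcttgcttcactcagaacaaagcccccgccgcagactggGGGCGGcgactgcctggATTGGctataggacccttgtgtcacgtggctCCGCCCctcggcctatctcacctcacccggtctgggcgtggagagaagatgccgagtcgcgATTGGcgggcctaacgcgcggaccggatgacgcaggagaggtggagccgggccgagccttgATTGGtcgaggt
Srebf2: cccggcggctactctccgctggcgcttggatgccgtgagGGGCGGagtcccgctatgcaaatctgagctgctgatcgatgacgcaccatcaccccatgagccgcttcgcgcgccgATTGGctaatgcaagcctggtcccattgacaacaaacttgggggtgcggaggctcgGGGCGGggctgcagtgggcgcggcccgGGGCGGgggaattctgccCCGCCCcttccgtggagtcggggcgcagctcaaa
Elovl6: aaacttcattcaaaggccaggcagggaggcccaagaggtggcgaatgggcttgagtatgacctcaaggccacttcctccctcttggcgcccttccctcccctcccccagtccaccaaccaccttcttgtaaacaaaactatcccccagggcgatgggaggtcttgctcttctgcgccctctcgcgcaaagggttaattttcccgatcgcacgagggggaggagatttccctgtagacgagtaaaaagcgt

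Of the 35 measured genes, 28 had a promoter in the table, with 37 windows, and a gene counted once where any of its windows held a match. CCAAT was found in 23 of the 28 genes (82.1%), against 37.5% of the 27025 genes in the table. By arm, 15 of 15 sterol enzymes and 4 of 8 fatty acid genes (50.0%) held it. GGGCGG was found in 13 of 15 sterol enzymes (86.7%) and in 4 of 8 fatty acid genes (50.0%), against 35.4% of all genes. TCACNCCAC was found only in Hmgcs1, where its first base lies 137 bases before the start, and in 1.22% of all genes. Only exact matches to this form were searched for, so other forms of the element would be missed. The window of Elovl6 held none of the 3 motifs. The 27025 genes were not limited to genes tested here and were not matched to these genes in level. These are matches of letters, with no binding measured here.

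The sterol enzymes fell as a block. All 18 passed, with a median of −0.49 and a range from −0.90 to −0.27, and after cyclic loess 15 of the 18 still fell with a median of −0.35. The steps from acetyl-CoA to isoprenoids opened with Hmgcs1, HMG-CoA synthase, which condenses acetoacetyl-CoA with acetyl-CoA. Its log2 values were 10.42, 10.67, 10.51, 10.37 and 10.37 on SP600125 arrays a to e, against 11.08, 10.91, 10.97, 10.95 and 10.96 on DMSO arrays a to e. Every SP600125 array was lower than every DMSO array, array b being the highest of the SP600125 arrays and the lowest of the DMSO arrays. The change was −0.50 (SE 0.07, limma adjusted p = 0.000189), a level of 70.5% of that after DMSO.

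The kinases that act on mevalonate came next in the pathway. Mvk, mevalonate kinase, fell by 0.27 (SE 0.08), the smallest fall of a sterol enzyme, and Pmvk, phosphomevalonate kinase, fell by 0.37 (SE 0.12), the widest SE among these genes. On array b Pmvk was higher after SP600125 (7.65) than after DMSO (7.37), while for each other letter it was lower after SP600125. Its fall did not pass without DMSO replicate d (−0.29, limma adjusted p = 0.0533), SP600125 replicate a (−0.33, limma adjusted p = 0.0572) or SP600125 replicate d (−0.30, limma adjusted p = 0.0582). Mvd, the decarboxylase that makes isopentenyl diphosphate, fell by 0.37 (SE 0.07).

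Idi1, which isomerises isopentenyl diphosphate, fell by 0.61 (SE 0.07, limma adjusted p = 7.57e-05), and its other probe set gave −0.60. Fdps, farnesyl diphosphate synthase, fell by 0.50 (SE 0.10). Ggps1, which makes geranylgeranyl diphosphate for the tagging of proteins rather than for sterols, fell by 0.35 (SE 0.06). Fdft1, squalene synthase, where the path commits to sterols, fell by 0.36 (SE 0.08), and by 0.48 on its other probe set. Sqle, the epoxidase of squalene and a control point of the pathway, fell by 0.56 (SE 0.08), and Lss, which closes the rings to lanosterol, fell by 0.46 (SE 0.07).

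After lanosterol, the changes ran from −0.90 for Hsd17b7 to −0.35 for Sc5d. Cyp51, the demethylase of lanosterol, fell by 0.52 (SE 0.10), the sterol reductase Tm7sf2 by 0.52 (SE 0.10), and Msmo1 and Nsdhl, which take methyl groups off the ring, by 0.48 (SE 0.07) and 0.56 (SE 0.11). Ebp, a sterol isomerase, fell by 0.38 (SE 0.06) and the desaturase Sc5d by 0.35 (SE 0.07). The b arrays gave no difference for some of them: Cyp51 was 9.07 on SP600125 b and 9.07 on DMSO b, while it was 8.43 on SP600125 a and 9.33 on DMSO a.

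Hsd17b7, the ketosteroid reductase that works beside Nsdhl, fell most of all 35 genes. It had log2 values of 7.51, 8.10, 7.80, 7.48 and 7.65 on SP600125 arrays a to e, against 8.66, 8.40, 8.72, 8.64 and 8.62 on DMSO arrays a to e. The groups did not overlap, and array b again stood nearest to the other group in both. The change was −0.90 (SE 0.11, limma adjusted p = 9.91e-05), or 53.6% of the DMSO level, and −0.71 after cyclic loess.

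Dhcr7, the reductase of the final step to cholesterol, had the next largest fall among the sterol enzymes. It had log2 values of 6.97, 7.38, 7.28, 7.17 and 7.22 on SP600125 arrays a to e, against 7.71, 7.78, 8.04, 7.95 and 7.95 on DMSO arrays a to e. No SP600125 array reached the lowest DMSO array. The change was −0.68 (SE 0.08, limma adjusted p = 7.99e-05), or 62.5% of the DMSO level.

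**Figure D3:**
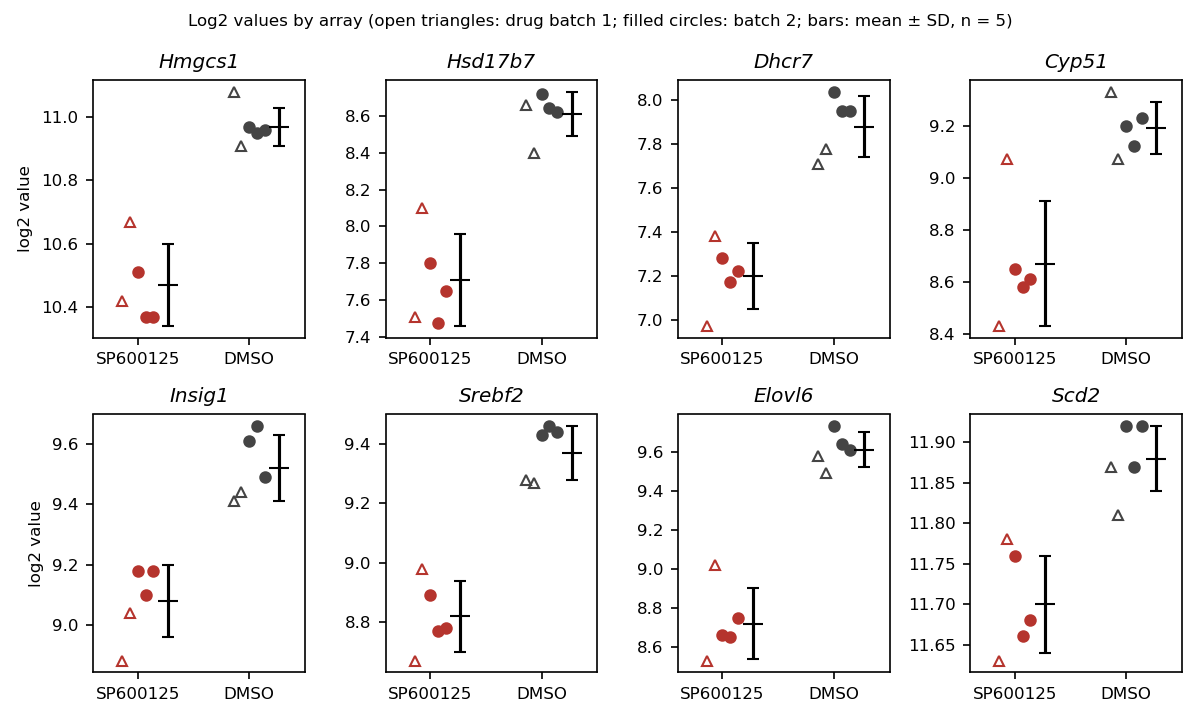
Log2 values of 8 genes on each array, SP600125 left of DMSO in every panel, with open triangles for drug batch 1, filled circles for drug batch 2 and bars for mean ± SD (n = 5); the vertical axes differ between panels and do not start at 0. The groups do not overlap in any of the 8 panels, though for Cyp51 the highest SP600125 array and the lowest DMSO array are both at 9.07, and the upper triangle of the SP600125 group is array b in all of them.

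The regulators of SREBP were lower too. All 5 passed, with a median of −0.31 and a range from −0.55 to −0.20, and 2 of the 5, Srebf2 and Insig1, still fell after cyclic loess, where the median was −0.14. Srebf2, the SREBP gene known for the sterol enzymes and itself a target of SREBP, had log2 values of 8.67, 8.98, 8.89, 8.77 and 8.78 on SP600125 arrays a to e, against 9.28, 9.27, 9.43, 9.46 and 9.44 on DMSO arrays a to e. The groups were clearly apart. The change was −0.55 (SE 0.07, limma adjusted p = 0.00013), or 68.1% of the DMSO level.

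Srebf1, the SREBP gene known for the fatty acid genes, had log2 values of 7.22, 7.07, 7.26, 7.32 and 7.31 on SP600125 arrays a to e, against 7.48, 7.40, 7.63, 7.63 and 7.60 on DMSO arrays a to e. The groups did not overlap, and array b was the lowest in both. The change was −0.31 (SE 0.06, limma adjusted p = 0.000864), and −0.14 after cyclic loess (limma adjusted p = 0.103). The difference between the falls of Srebf2 and Srebf1 was not tested.

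Insig1, which keeps Scap in the endoplasmic reticulum and is switched on by SREBP as feedback, had log2 values of 8.88, 9.04, 9.18, 9.10 and 9.18 on SP600125 arrays a to e, against 9.41, 9.44, 9.61, 9.66 and 9.49 on DMSO arrays a to e. All SP600125 arrays were lower than all DMSO arrays. The change was −0.44 (SE 0.06, limma adjusted p = 0.000203). Its relative Insig2 fell by 0.31 (SE 0.07), and Scap, the escort of SREBP, by 0.20 (SE 0.06). The fall of Scap did not pass without DMSO replicate e (−0.17, limma adjusted p = 0.0605) or SP600125 replicate a (−0.17, limma adjusted p = 0.0568).

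Stard4, a small protein that carries sterol between membranes and a known SREBP target, had log2 values of 7.20, 7.23, 7.46, 7.06 and 7.20 on SP600125 arrays a to e, against 7.72, 7.76, 7.76, 7.65 and 7.74 on DMSO arrays a to e. The groups were apart on every array, array b included. The change was −0.50 (SE 0.07, limma adjusted p = 0.000281), or 70.7% of the DMSO level, and −0.32 after cyclic loess.

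The fatty acid arm was lower, and its genes differed widely among themselves. Of its 11 genes 10 fell, with a median of −0.31 and a range from −0.89 to −0.14; after cyclic loess 7 fell and the median was −0.19. The enzymes that supply acetyl-CoA and NADPH opened the arm. Acly, which splits citrate into acetyl-CoA and so feeds both arms, had log2 values of 8.54, 9.02, 8.77, 8.64 and 8.71 on SP600125 arrays a to e, against 9.30, 9.16, 9.47, 9.40 and 9.37 on DMSO arrays a to e. The groups did not overlap, with a gap of little width at array b. The change was −0.60 (SE 0.09, limma adjusted p = 0.00029), or 65.8% of the DMSO level.

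Acss2, which makes acetyl-CoA from acetate, fell by 0.33 (SE 0.07). Me1, malic enzyme, a source of NADPH, fell by 0.14 (SE 0.05, limma adjusted p = 0.0483), and its other probe set did not pass (−0.12, limma adjusted p = 0.101). The fall of Me1 was lost when any of 8 of the 10 arrays was left out, with changes from −0.16 to −0.13 over all 10 omissions.

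The enzymes of synthesis proper had changes close to the arm's median. Acaca, the carboxylase that makes malonyl-CoA, fell by 0.31 (SE 0.06), and by 0.37 on its other probe set. Fasn, fatty acid synthase, had log2 values of 8.52, 8.66, 8.78, 8.64 and 8.70 on SP600125 arrays a to e, against 8.95, 9.04, 9.02, 9.04 and 9.02 on DMSO arrays a to e. Array b lay with the rest of its group in both. The change was −0.35 (SE 0.06, limma adjusted p = 0.000564), or 78.3% of the DMSO level.

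Elovl6, which lengthens palmitate to stearate, had the largest fall of the arm. It had log2 values of 8.53, 9.02, 8.66, 8.65 and 8.75 on SP600125 arrays a to e, against 9.58, 9.49, 9.73, 9.64 and 9.61 on DMSO arrays a to e. Even the highest SP600125 array was well below the lowest DMSO array. The change was −0.89 (SE 0.09, limma adjusted p = 3.69e-05), or 54.0% of the DMSO level, and −0.74 after cyclic loess. Elovl5, which lengthens polyunsaturated fatty acids, fell by 0.14 (SE 0.05, limma adjusted p = 0.0468), and this was lost when any of 9 of the 10 arrays was left out, with changes from −0.15 to −0.12 over all 10 omissions.

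The desaturases ranged from a clear fall to none called. Scd1, which makes oleate from stearate, fell by 0.48 (SE 0.08). Scd2, the form known as abundant in mouse brain, had log2 values of 11.63, 11.78, 11.76, 11.66 and 11.68 on SP600125 arrays a to e, against 11.87, 11.81, 11.92, 11.87 and 11.92 on DMSO arrays a to e. The groups were apart but nearly touched at array b. The change was −0.18 (SE 0.06, limma adjusted p = 0.0212), and it did not pass without DMSO replicate e (−0.17, limma adjusted p = 0.0532), SP600125 replicate a (−0.16, limma adjusted p = 0.0549) or SP600125 replicate d (−0.16, limma adjusted p = 0.0527). Whether probes of Scd1 and Scd2, which are close relatives, also detect each other's transcript was not tested.

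Fads2, the desaturase at the entry to long polyunsaturated fatty acids, fell by 0.29 (SE 0.07). Fads1, the desaturase after it, had log2 values of 9.55, 9.94, 9.68, 9.53 and 9.66 on SP600125 arrays a to e, against 9.80, 9.79, 9.91, 9.83 and 9.86 on DMSO arrays a to e. The groups overlapped because SP600125 b was the highest of all 10 arrays. The change was −0.17 (SE 0.08, limma adjusted p = 0.0864), and without SP600125 replicate b it passed at −0.24 (limma adjusted p = 0.00423).

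Set side by side, 17 of the 18 sterol enzymes lay below the median of the fatty acid arm, and 2 of the 11 fatty acid genes, Elovl6 and Acly, lay below the median of the sterol enzymes. The sterol median was lower by 0.18 on the log2 scale. Of the sterol enzymes 18 of 18, and of the fatty acid genes 7 of 11, lay below the median of all genes in the level range. These are descriptions of the chosen genes, and no p was taken for a difference between the arms.

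The falls were seen on every SP600125 array, least on array b. Relative to the DMSO mean of the same drug batch, the sterol enzymes averaged −0.54, −0.19, −0.50, −0.60 and −0.59 on SP600125 arrays a to e, and within 0.06 of 0 on the DMSO arrays. The fatty acid arm averaged −0.42, −0.18, −0.33, −0.45 and −0.38 on SP600125 arrays a to e, and within 0.03 of 0 on the DMSO arrays. On array b both arms were thus close together, while on the other 4 SP600125 arrays the sterol enzymes were lower than the fatty acid arm. All genes of the level range averaged −0.23, −0.11, −0.19, −0.25 and −0.22 on SP600125 arrays a to e, also least on array b. Between the b arrays 30 of the 35 genes were lower after SP600125, with a median difference of −0.18. Between the a arrays 35 of 35 were lower, with a median of −0.52. Of the 8751 genes in the level range, 5805 were lower between the b arrays (median −0.08) and 7300 between the a arrays (median −0.27). Without both b arrays 33 of the 35 genes fell with a median of −0.46. That fit called 9709 of the 19938 genes in either direction, against 9351 with all arrays.

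**Figure D4:**
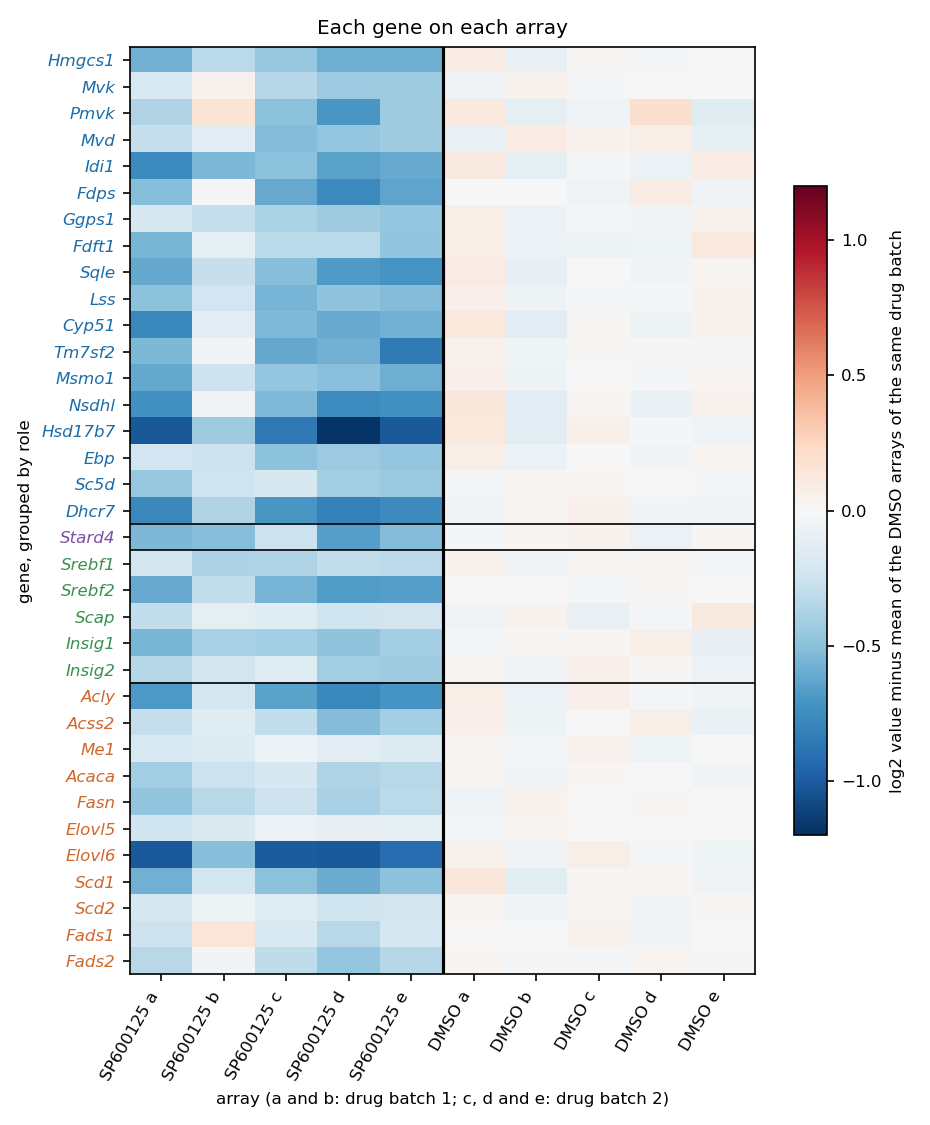
Heat map of the 35 genes (rows, grouped by role and coloured as in the plot of changes) on the 10 arrays (columns, SP600125 left of DMSO), each cell giving the log2 value minus the mean of the DMSO arrays of the same drug batch. The 5 SP600125 columns are blue (lower) for most genes, column b being the palest of them, and the DMSO columns are near white.

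Both drug lots gave lower values, as they did for most genes of the level range. Of its 8751 genes, 7334 had a change below 0 with lot 1 (median −0.18) and 7386 with lot 2 (median −0.22). With lot 2, 4452 of these were called lower, and with lot 1 only 1 was. In drug batch 2 alone 32 of the 35 genes fell with a median of −0.47, and in drug batch 1 alone all 35 changes were below 0 with a median of −0.34, none of them past the threshold (2 residual degrees of freedom; 19 had an unadjusted p under 0.05). The change was further below 0 in drug batch 2 than in drug batch 1 for 28 of the 35 genes and for 17 of the 18 sterol enzymes, against 60.8% of all genes and 59.1% of those in the level range. The interaction of treatment and drug batch in limma was called for 0 of the 35 genes, as it was for 0.0% of all genes. At an unadjusted p under 0.05 it was met by 3 of them (Mvk, Fdps and Tm7sf2) and by 1852 of the 19938 genes. Mvk changed by −0.40 in drug batch 2 and by −0.07 in drug batch 1 (unadjusted p = 0.0212 and adjusted p = 0.519 for the difference). Drug batch 1 holds only arrays a and b, so the lot and these arrays cannot be told apart.

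**Figure D5:**
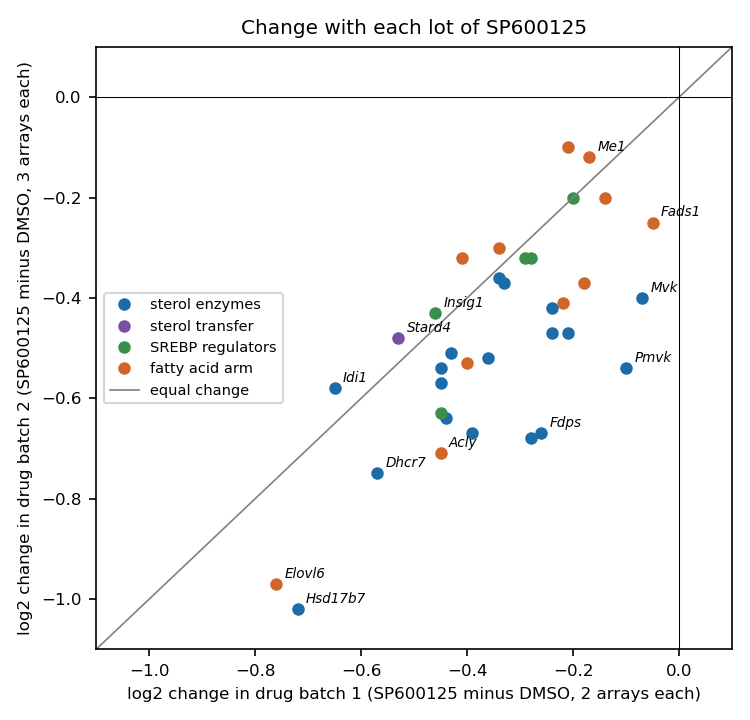
Log2 change in drug batch 2 (vertical, 3 arrays per group) against that in drug batch 1 (horizontal, 2 arrays per group), SP600125 minus DMSO, for the 35 genes coloured by role, with a line of equal change. All points lie below 0 on both axes, 28 of the 35 lie below the line, and Hsd17b7 (−1.02 and −0.72) and Elovl6 (−0.97 and −0.76) lie farthest out.

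Markers of cell types were called in both directions. Of all genes tested, 29.9% were called lower and 17.0% higher. In the level range of the synthesis genes 56.8% were called lower. After cyclic loess 17.7% of all genes and 23.6% of that range were called lower. Of 8 neuronal markers 7 fell, with a median of −0.50, and their mean log2 level was 8.56 to 9.13 on SP600125 arrays and 8.97 to 9.31 on DMSO arrays. Relative to the DMSO mean of the same batch they averaged −0.56, 0.01, −0.59, −0.69 and −0.63 on SP600125 arrays a to e. Their mean level lay above the array medians of 5.92 to 5.97 (SP600125) and 5.93 to 6.02 (DMSO). Of 8 astrocyte markers 4 fell and 1 rose (mean level 7.68 to 7.78 on SP600125 arrays and 7.74 to 7.84 on DMSO arrays), and of 8 oligodendrocyte markers 3 fell (6.49 to 6.52 on SP600125 arrays and 6.56 to 6.65 on DMSO arrays). Of 6 fibroblast and endothelial markers 4 fell (7.82 to 7.91 on SP600125 arrays and 8.09 to 8.22 on DMSO arrays). Of 5 microglial markers 4 rose (4.69 to 4.93 on SP600125 arrays and 4.45 to 4.67 on DMSO arrays). The mean level of the microglial markers lay below the array medians. The olfactory receptor genes were also higher, with medians of 3.86 to 3.95 on SP600125 arrays and 3.58 to 3.75 on DMSO arrays. After cyclic loess 5 neuronal, 2 astrocyte, 2 oligodendrocyte and 4 fibroblast and endothelial markers fell. Then 1 astrocyte marker (Aqp4, not called as deposited) and 1 microglial marker (Cx3cr1) rose. Gjb6, the astrocyte marker that rose as deposited, no longer passed (0.17, limma adjusted p = 0.18). The rises of the microglial markers Aif1, Itgam and Tyrobp were also lost when any of 5, 8 and 5 of the 10 arrays was left out, in that order. Among the falls, those of Slc1a2 (astrocytes), Mbp (oligodendrocytes) and Kdr (endothelium) were lost when any of 5, 5 and 8 arrays was left out. The other falls of markers passed on every omission. The arrays give every probe set a value, so no marker is at 0. In a bulk sample fewer cells of a type and less RNA per cell cannot be told apart, and the part of cell composition in the falls of the sterol and fatty acid genes was not tested.

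Genes around the pathway moved in both directions. Of 60 related genes listed, 52 were measured, and 23 fell, 4 rose and 25 did not pass, with a median of −0.13. Of all genes tested 29.9% were called lower and 17.0% higher, and in the level range of the synthesis genes 56.8% were called lower. After cyclic loess 14 of the 52 related genes fell and 6 rose, against 17.7% of all genes and 23.6% of that range called lower. In sterol uptake, storage and export 7 of 15 fell and 2 rose, and after cyclic loess 3 fell and 2 rose; the shares of all genes called lower given above, 29.9% and 56.8% in the level range of the synthesis genes, lie on either side of this count. Lrp8, a lipoprotein receptor that also binds reelin, had log2 values of 7.41, 7.75, 7.61, 7.55 and 7.51 on SP600125 arrays a to e, against 8.16, 8.11, 8.33, 8.32 and 8.31 on DMSO arrays a to e. Its groups were apart, and the change was −0.68 (SE 0.07, limma adjusted p = 5.88e-05). Cyp46a1, the neuronal enzyme that turns cholesterol into a hydroxysterol for export from the brain, fell by 0.44 (SE 0.10), with equal values on the b arrays (7.22 on SP600125 b and 7.22 on DMSO b).

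Of the 15 genes of sterol uptake, storage and export, the 2 that rose were Abca1 and Vldlr. Abca1, the exporter of cholesterol that the oxysterol receptors LXR switch on, had log2 values of 8.57, 8.33, 8.61, 8.46 and 8.49 on SP600125 arrays a to e, against 8.12, 8.37, 8.09, 8.02 and 8.05 on DMSO arrays a to e. The groups overlapped only through the b arrays, and the change was 0.36 (SE 0.08, limma adjusted p = 0.00244). Vldlr, the relative of Lrp8 that also binds reelin, had log2 values of 8.47, 8.65, 8.57, 8.45 and 8.54 on SP600125 arrays a to e, against 8.19, 8.16, 8.23, 8.15 and 8.26 on DMSO arrays a to e. Every SP600125 array was higher, array b included, and the change was 0.33 (SE 0.06, limma adjusted p = 0.000879). After cyclic loess these rises were 0.54 and 0.52. Others of that list did not follow. Abcg1 (−0.05), Mylip (0.05) and Nr1h3 (0.21) were not called, and Abcg4 (−0.19), Scarb1 (−0.38) and Npc1 (−0.24) fell.

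Of 14 other genes of fatty acid synthesis and elongation, 7 fell and 1 rose, and after cyclic loess 6 fell and none rose. The count of 7 lies between the shares called lower of all genes (29.9%) and of the synthesis genes' level range (56.8%). After cyclic loess these shares were 17.7% and 23.6%. Acsl4, which activates arachidonate and other long fatty acids, fell by 0.72 (SE 0.12), although its b arrays were level (8.76 on SP600125 b and 8.73 on DMSO b), and Elovl2, an elongase of polyunsaturated fatty acids, fell by 0.45 (SE 0.08). Thrsp, a gene tied to lipid synthesis, rose by 0.25 (SE 0.09, limma adjusted p = 0.0451), but not after cyclic loess (0.12, limma adjusted p = 0.413) or when any of 6 arrays was left out, with changes from 0.17 to 0.31 over all 10 omissions. Fatty acid oxidation had a median of 0.01 over 9 genes, of which 1 fell, 1 rose and 7 did not pass. Cpt1a, which lets fatty acids into mitochondria, fell by 0.36 (SE 0.09), and Ppara, a nuclear receptor that switches on oxidation, rose by 0.29 (SE 0.07). Neither passed after cyclic loess (−0.17 with limma adjusted p = 0.195 for Cpt1a, and 0.14 with limma adjusted p = 0.193 for Ppara). Hadha (0.20, limma adjusted p = 0.0225) and Acadl (0.26, limma adjusted p = 0.04), not called as deposited, passed as rises after cyclic loess.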

How the data were processed

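RNA from mouse neurons treated with SP600125 or DMSO was measured on 10 Affymetrix whole-transcript arrays, 5 per group. The deposited values were log2 expression values, 1 per probe set and array, and the submitters' processing notes name oligo 1.14.0 as their tool. How background was corrected, arrays were normalized and probes were summarized is not given in the sources used here. They were used as deposited. Gene names came from the platform's annotation, possibly outdated, and the probe set with the highest mean stood for a gene. The number of arrays limits the precision.

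Changes were fitted by the lmFit and eBayes functions of limma 3.58.1 (R version 4.3.3; two-sided tests) on all 19938 genes, with treatment and drug batch as terms and 7 residual degrees of freedom, and p-values were adjusted over all genes by Benjamini-Hochberg (threshold 0.05). The fit was tested on simulated data. Alternatives were quantile normalization, cyclic loess, 2 ways of centring, no batch term, each batch alone, a replicate block, a filter on dim genes, the mean of all probe sets of a gene, an intensity trend, and leaving out arrays. Values on every array are given for the 2 largest changes in each role group, members that did not pass, and Hmgcs1, Srebf1, Srebf2, Insig1, Fasn and Scd2, and of the related genes up to 4 largest changes in each direction are named. Cyp51, Pmvk and Cpt1a were named with values after these were seen. The genes, the lists and the naming rule were chosen with earlier results of these data known. Promoter windows came from RefSeq (GRCm38.p6).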

Additional observations from a re-analysis of the deposited data

Results flagged for a closer look

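Mvk on SP600125 replicate b was far from its group, at 7.26 against 6.94 to 7.03 on the other 4 SP600125 arrays. It was the only such array among 70 groups checked (35 genes in SP600125 and DMSO), and chance alone flags about 1 in 20 groups. DMSO replicate b was at 7.25 for the same gene.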

How the results depend on the processing

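Of the 35 genes, between 29 and 35 fell under the alternatives other than cyclic loess (25) and drug batch 1 alone (0), and none rose under any of them. Drug batch 1 alone, with 2 residual degrees of freedom, also left 0 sterol enzymes, 0 fatty acid genes, 0 regulators and sterol transfer genes and 0 related genes called, and 1 gene of all. Cyclic loess left 3 of 6 regulators and sterol transfer genes and 14 related genes lower (23 as deposited), moved the fatty acid median to −0.19 and turned Me1 to 0.01, and called 5419 genes of all; quantile normalization called 5991 and the values as deposited 9351. Leaving out 1 array gave 29 to 34 members that fell, and 7673 to 9687 genes of all called in either direction. Centring on the median of all probe sets gave 35 falls, and on that of named genes 31. The replicate letters did not pair the arrays (correlations of deviations from −0.208 to 0.101; 1 of 5 SP600125 arrays correlated best with its own letter), and with a replicate block 31 genes fell, Elovl5, Me1 and Scd2 no longer passing. The precision is limited by the 5 arrays per group, and small changes such as those of Elovl5 and Me1 passed only narrowly.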
